A study of Mus musculus with 6 samples.

Results

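Interleukin and interferon receptors are the chains by which B cells read cytokines made by T cells, myeloid cells and other B cells. The set was chosen by name as 8 mouse genes: Il2rg, Il4ra, Il21r, Il2ra, Il10ra, Il6ra, Il6st and Ifngr1. Probes carrying 6 of these symbols were measured, 8 probes in all among 25697 on the array. Il2rg and Il4ra were not analysed here. RNA of mouse splenic B cells was compared between a Control group of 3 arrays (normal B cells) and a TRAF3KO group of 3 arrays (TRAF3-/- premalignant B cells). TRAF3 is an adaptor that holds back non-canonical NF-kB signalling in B cells, and the comparison asks what differs in its absence. The sources used here do not give strain, age, sex, the means of deletion or the relation of the control to the TRAF3KO mice. Nothing states that each array held a separate mouse, so p-values cover only the spread of these samples, possibly technical in part.

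As background, IL-21 signals through the chain encoded by Il21r paired with the common gamma chain, which binds the kinase JAK3. Il2ra encodes CD25, the chain that raises the affinity of the IL-2 receptor and marks regulatory T cells and activated lymphocytes. Il6ra encodes the IL-6 binding chain and Il6st encodes gp130, the signalling chain shared by the IL-6 family. Il10ra and Ifngr1 encode the ligand-binding chains of the IL-10 and interferon gamma receptors, and they act with Il10rb and Ifngr2. All these receptors lack a kinase of their own and pass the signal to JAK kinases and STAT transcription factors.

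Most B cell genes were bright. All 7 measured B cell markers lay above the 40th percentile of the array on all 6 arrays. Cd79a, a chain of the B cell receptor, read 15.89 to 16.08 (log2 intensity). The transcription factor Pax5 was dimmer, at 5.58 to 6.75 beside array medians of 5.35 to 5.36. Some erythroid genes were bright too, with the haemoglobin chain Hba-a1 at 15.92 to 16.13. TRAF3KO replicate 1 had the lowest summed level of 6 erythroid markers (62969, against 76227 to 80012 on the other arrays). Array medians differed by at most 0.00705, and arrays correlated at 0.938 to 0.945 within groups and 0.937 to 0.94 between them, by Pearson's r over probes (probes are not independent replicates). No probe carried the symbol Traf3, so the knockout was not checked on these arrays. Judged from Xist and Eif2s3y levels, 3 arrays read as male (Control replicates 1 and 3, TRAF3KO replicate 1) and 3 as female. Each group thus held arrays of both readings, so not all arrays of a group came from the same RNA.

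The receptors did not move as one. Ifngr1 was higher and Il10ra lower in TRAF3KO cells, and the other 4 genes were not called. A call here means an adjusted p under 0.05 by limma, with Benjamini-Hochberg adjustment across the 15657 probes that passed a filter on dim ones. Across 10304 genes tested 4.44% were called, 2.3% higher and 2.14% lower, beside 2 of the 6 receptors (33.3%), a share that rests on 2 genes. The receptors were chosen with earlier results of these data known. The shares given here, that of groups without overlap included, are therefore no test of the set. Of the 6 genes 2 had a positive and 4 a negative difference, with a median of -0.17 (log2) beside 0.00 over all genes tested. Groups did not overlap for Ifngr1, Il10ra and Il2ra, 3 of 6 genes, against 22.4% of all genes.

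**Figure D1:**
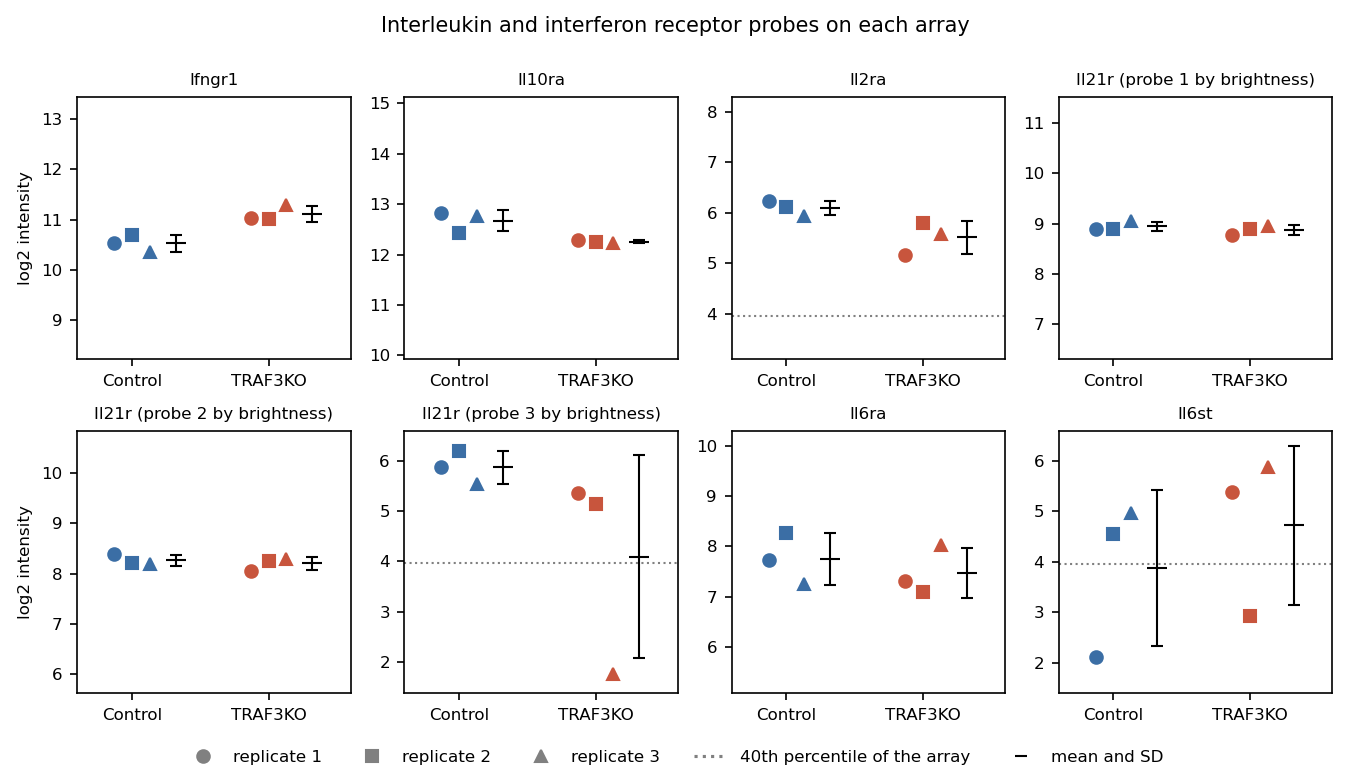
Log2 intensity (vertical axis, each panel spanning the same range of log2 units) of each receptor probe on the 3 Control and 3 TRAF3KO arrays. Symbols give the replicate, black bars the mean and SD, and the dotted line the mean 40th percentile of the arrays. Ifngr1 lies higher and Il10ra lower on all TRAF3KO arrays, and Il6st is scattered around the dotted line.

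The promoters of the receptors that frame the result are printed first. Ifngr1 is shown as the receptor that rose, and Il2ra as a measured receptor whose promoter holds a match to the NF-kB consensus. Both come from the RefSeq promoter table on GRCm38.p6, which holds 7 of the 8 genes and gives 250 bases before to 50 bases after the start site, on the gene's strand. The window of Ifngr1 is chr10:19591699-19591998 (plus strand), and that of Il2ra is chr2:11642542-11642841 (plus strand). Capitals mark GC boxes (GGGCGG on either strand) in Ifngr1 and the NF-kB consensus in Il2ra.
Ifngr1: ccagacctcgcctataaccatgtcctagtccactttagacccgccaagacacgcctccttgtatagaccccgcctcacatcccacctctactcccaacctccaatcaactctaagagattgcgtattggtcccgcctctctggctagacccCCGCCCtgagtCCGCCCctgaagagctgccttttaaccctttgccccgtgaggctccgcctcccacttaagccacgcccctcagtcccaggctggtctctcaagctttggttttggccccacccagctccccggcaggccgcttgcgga
Il2ra: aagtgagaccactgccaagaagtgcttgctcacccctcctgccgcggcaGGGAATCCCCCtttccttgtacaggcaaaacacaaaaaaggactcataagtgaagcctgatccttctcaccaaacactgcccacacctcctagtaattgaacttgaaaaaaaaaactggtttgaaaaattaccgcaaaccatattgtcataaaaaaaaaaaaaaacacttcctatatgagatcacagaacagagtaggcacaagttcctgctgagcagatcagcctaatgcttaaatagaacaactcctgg
The capitals of Il2ra are 2 overlapping matches, the first starting at -201 and the last ending at -191 from the start site. The NF-kB consensus was found in 2 of the 7 promoters, Il2ra and Il4ra, and in 4.51% of all 32851 promoters in the table. The GC box was found in 4 of the 7 (Ifngr1, Il21r, Il4ra and Il6st) and in 35.7% of all. The GAS motif (TTCNNNGAA, either strand), the element that STAT dimers bind, was found in 0 of the 7 and in 8.3% of all. A match is a stretch of letters, and no binding was measured here. Il10ra had no entry in the table.

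Ifngr1 encodes the ligand-binding chain of the interferon gamma receptor. It read 10.53, 10.69 and 10.36 on Control arrays 1 to 3 and 11.02, 11.01 and 11.29 on TRAF3KO arrays 1 to 3 (log2 intensity). Every TRAF3KO array lay above every Control array. The means were 10.53 ± 0.16 and 11.11 ± 0.16 (SD, n = 3 each). The difference was 0.58 ± 0.11 (log2, SE), with a 95% interval of 0.33 to 0.84 and a limma adjusted p of 0.017. On the linear scale this was a 1.50-fold higher intensity, with an interval of 1.26 to 1.78. The call was lost in 3 of 6 leave-one-out fits, with adjusted p = 0.067 without Control replicate 1, 0.068 without Control replicate 3 and 0.052 without TRAF3KO replicate 3. The difference itself stayed between 0.49 and 0.67 over 18 alternatives. It was 0.47 among the arrays reading as female (1 Control, 2 TRAF3KO) and 0.58 among those reading as male (2 Control, 1 TRAF3KO).

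The partner chain of Ifngr1 is encoded by Ifngr2, which passes the signal on through JAK2. Ifngr2 read 11.34, 11.65 and 11.03 on the Control arrays and 11.28, 11.26 and 11.20 on the TRAF3KO arrays. Its groups overlapped, and the difference was -0.09 ± 0.13 (95% interval -0.38 to 0.20, limma adjusted p = 0.79). The change of Ifngr1 less that of Ifngr2, taken within each array, was 0.68 log2 units and did not overlap between groups. Its exact two-sided permutation p was 0.1, the smallest that 3 against 3 can give, and 0.3 adjusted over the 3 chain pairs compared.

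Il10ra encodes the ligand-binding chain of the IL-10 receptor, through which IL-10 signals to STAT3. It read 12.82, 12.43 and 12.77 on the Control arrays and 12.29, 12.25 and 12.23 on the TRAF3KO arrays (log2 intensity). All TRAF3KO arrays lay below all Control arrays, and Control replicate 2 was the nearest to them. The means were 12.68 ± 0.21 and 12.26 ± 0.03 (SD, n = 3 each). The difference was -0.42 ± 0.10 (log2, SE), with a 95% interval of -0.64 to -0.20 and a limma adjusted p of 0.040. This is an intensity 0.748 times that of the controls, with an interval of 0.643 to 0.87. Of 6 leave-one-out fits 5 lost the call, with adjusted p = 0.17 without Control replicate 1, 0.15 without Control replicate 3 and 0.099, 0.13 and 0.10 without TRAF3KO replicates 1, 2 and 3. Without Control replicate 2 the difference was -0.54 (adjusted p = 0.0060). With inferred sex as a block the call was also lost (-0.35, adjusted p = 0.068). The difference was -0.19 among arrays reading as female (1 Control, 2 TRAF3KO) and -0.51 among those reading as male (2 Control, 1 TRAF3KO). Each value rests on 1 array of a group, so they cannot show a difference between the sexes.

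Il10rb, which encodes the second chain of the IL-10 receptor and also serves IL-22 and interferon lambda, read 9.95, 9.94 and 9.85 in Control and 9.74, 9.80 and 10.17 in TRAF3KO. The groups overlapped, with a difference of -0.01 ± 0.13 (95% interval -0.29 to 0.27, limma adjusted p = 0.98). The change of Il10ra less that of Il10rb within each array was -0.41 log2 units, and those values overlapped between groups (exact two-sided permutation p = 0.2, 0.3 adjusted over the 3 pairs).

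Myeloid cells also express Il10ra, and the summed level of their markers was lower on TRAF3KO arrays than on 2 of the 3 Control arrays. The summed intensity over 9 monocyte and macrophage markers was 4022, 1831 and 5086 on Control arrays 1 to 3 and 2053, 1850 and 1223 on the TRAF3KO arrays. Control replicate 2, the control lowest in Il10ra, was also the lowest control in these markers and lay within the TRAF3KO range, below TRAF3KO replicates 1 and 2. Their part in the Il10ra result was not tested. The markers C1qc and Lyz2 were called lower among 6 tested. Of these 6, 5 had a negative and 1 a positive difference, with a median of -2.81. An unadjusted limma p under 0.05 was found for 4 of the 6, beside 1741 of all 10304 genes tested. The positive one was the bright macrophage marker Adgre1, at 0.05 ± 0.17 (limma adjusted p = 0.92). Itgam lay under the 40th percentile on all arrays. Dendritic cell markers summed to 21998 to 25778 in Control and 15308 to 17220 in TRAF3KO, without overlap. Most of that sum was Cst3, which fell by 0.62 log2 units (SE 0.08, limma adjusted p = 0.0013), while Itgax lay at 0 on all arrays. Zbtb46 went the other way, at 0 on all Control arrays and 6.35, 6.51 and 7.02 on the TRAF3KO arrays (limma adjusted p = 0.024). Its probe passed the filter only through the TRAF3KO arrays, so the filter favoured this difference and its p is a description only. Of 5 dendritic cell markers tested, 4 had a positive and 1 a negative difference, with a median of 0.02. In bulk samples, fewer cells of a type and less RNA per cell cannot be told apart.

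Il2ra, encoding CD25, read 6.22, 6.12 and 5.94 on the Control arrays and 5.16, 5.79 and 5.57 on the TRAF3KO arrays. The TRAF3KO arrays all lay below the Control arrays, at intensities of 35.8 to 55.5 against 61.4 to 74.8. The difference was -0.58 ± 0.39 (95% interval -1.45 to 0.28, limma adjusted p = 0.51) and was not called. It was negative in all 17 alternatives that gave a value, from -0.73 to -0.16 (adjusted p 0.31 to 0.72). Its SE was larger than those of the brighter Ifngr1 and Il10ra probes.

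T cell markers, which come from another cell type that carries CD25, were measured beside it. Summed over 11 markers they reached 7771 to 8519 in Control and 5235 to 6485 in TRAF3KO, without overlap. Most of this sum was Cd2, at 12.92 ± 0.08 in Control and 12.40 ± 0.13 in TRAF3KO (log2, mean and SD, n = 3 each), a gene that mouse B cells also express and the only called member of 8 tested. Cd8a and Lat lay at 0 on all arrays, Cd4 stayed under the 40th percentile throughout, and Cd3e ranged from 4.26 to 5.46. Cd3d read 4.87, 5.92 and 5.88 in Control and 0.68, 5.74 and 0 in TRAF3KO, and Thy1 read 5.17, 6.43 and 6.21 in Control and 2.79, 5.66 and 0 in TRAF3KO. Neither was called (limma adjusted p = 0.30 and 0.25). Other markers went the other way, Cd28 by the most, at 1.69 ± 0.88 (limma adjusted p = 0.39). Of the 8 tested T cell markers 5 had a positive and 3 a negative difference, with a median of 0.04. An unadjusted limma p under 0.05 was found for 3 of the 8, beside 1741 of all 10304 genes tested. The regulatory T cell marker Foxp3 read 6.07 to 6.78 in Control and 5.70 to 6.51 in TRAF3KO, and 0 of 3 tested regulatory T cell markers were called by limma (0 at an unadjusted p under 0.05). The part of other cells in the Il2ra values was not tested.

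**Figure D2:**
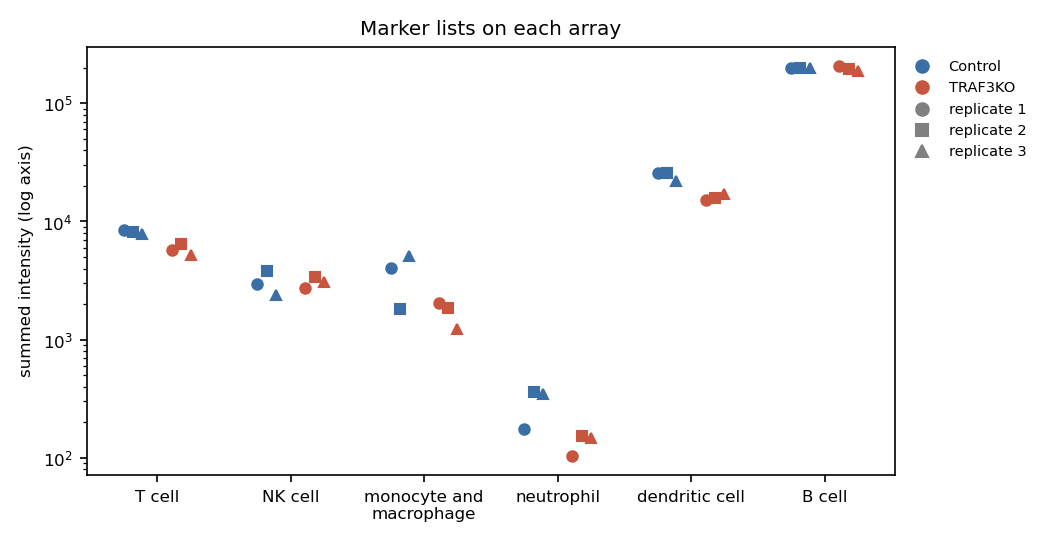
Summed intensity (vertical log axis) of each marker list on the 3 Control and 3 TRAF3KO arrays, with symbols for the replicate. The T cell sums are 7771 to 8519 in Control and 5235 to 6485 in TRAF3KO, and for monocyte and macrophage markers Control replicate 2 lies among the TRAF3KO arrays.

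Il21r encodes the IL-21 receptor, which drives B cell proliferation, death or plasma cell formation depending on the other signals. Its brightest probe read 8.89, 8.89 and 9.05 in Control and 8.76, 8.89 and 8.96 in TRAF3KO. The groups overlapped, with means of 8.95 ± 0.09 and 8.87 ± 0.10 (SD, n = 3 each). The difference was -0.08 ± 0.13 (95% interval -0.36 to 0.21, limma adjusted p = 0.82). The interval puts the TRAF3KO intensity between 0.777 and 1.16 times that of the controls. The next probe gave -0.06 ± 0.16 (adjusted p = 0.90). The dimmest of the 3 probes gave -1.78 ± 0.91 (adjusted p = 0.38), without overlap between groups. On that probe TRAF3KO replicate 3 read 1.77, far under the other 2 TRAF3KO arrays at 5.36 and 5.13, and Control read 5.87, 6.20 and 5.53. The probes thus differed in size though not in sign, and none was called.

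Il6ra read 7.72, 8.27 and 7.25 in Control and 7.31, 7.09 and 8.03 in TRAF3KO. High and low arrays occurred in both groups, and the difference was -0.27 ± 0.31 (95% interval -0.95 to 0.41, limma adjusted p = 0.72). It rested on single arrays, at -0.0079 without Control replicate 2, -0.52 without Control replicate 3, and -0.078 and -0.55 without TRAF3KO replicates 2 and 3. Il6st read 2.10, 4.55 and 4.97 in Control and 5.38, 2.93 and 5.87 in TRAF3KO. Its 1 probe was dim, over the 40th percentile (3.95 to 3.97) on 4 of 6 arrays, so gp130 was poorly measured here. The difference was 0.85 ± 1.12 (95% interval -1.61 to 3.31, limma adjusted p = 0.76) and turned to -0.032 without Control replicate 1. The change of Il6ra less that of Il6st within each array was -1.12 log2 units (exact two-sided permutation p = 0.5, also 0.5 adjusted over the 3 pairs). By Pearson's r over the 6 arrays, the genes most like Il6st were Olfr479 (0.98), Pxylp1 (0.97) and Ybey (0.97), and 17 genes in all reached 0.95. With 6 arrays and a dim probe this is a description only.

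Chains that pair with these receptors, or share their partners, were described from a list of 16 genes, of which 14 were tested. Of these, 2 were higher, 0 lower and 12 not called (median -0.02). Il9r, a receptor that also signals through the common gamma chain, rose by 4.63 ± 0.23 from 8.05, 7.70 and 8.74 in Control to 12.57, 12.70 and 13.10 in TRAF3KO (limma adjusted p = 2.4e-06). Il27ra, which pairs with gp130 to bind IL-27, read 10.86, 10.92 and 11.18 in Control and 11.36, 11.42 and 11.41 in TRAF3KO. It rose by 0.40 ± 0.10 (adjusted p = 0.044), which 5 of 6 leave-one-out fits did not call (all except the one without Control replicate 3), nor did the fit with inferred sex as a block.

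The remaining gamma chain partners were not called. Il2rb differed by 0.26 ± 0.85 (limma adjusted p = 0.91), Il15ra by 0.40 ± 0.48 (0.74) and Il7r by -3.03 ± 1.29 (0.28). Il7r read 6.24, 6.58 and 7.34 in Control and 4.64, 6.45 and 0 in TRAF3KO, so the size of its difference rests on TRAF3KO replicate 3. Il13ra1, which pairs with the IL-4 receptor chain, differed by 0.85 ± 0.77 (adjusted p = 0.64).

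Of 33 other cytokine receptor chains 20 were tested, with 0 higher, 1 lower and 19 not called (median -0.10). Il17ra, the shared chain of the IL-17 receptors, read 10.46, 10.52 and 10.90 in Control and 10.11, 9.90 and 10.16 in TRAF3KO. It fell by 0.57 log2 units (SE 0.13, limma adjusted p = 0.036), which none of the 6 leave-one-out fits called (adjusted p 0.051 to 0.13), nor did the fit with inferred sex as a block (0.086). Of the type I interferon receptor, Ifnar2 differed by -0.24 ± 0.17 (adjusted p = 0.54) and Ifnar1 fell under the filter on dim probes. Over both lists 3 of 34 genes were called (8.82%), beside 4.44% of all genes tested. The count fell to 1 in 5 of 6 leave-one-out fits and to 2 without Control replicate 3.

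**Figure D3:**
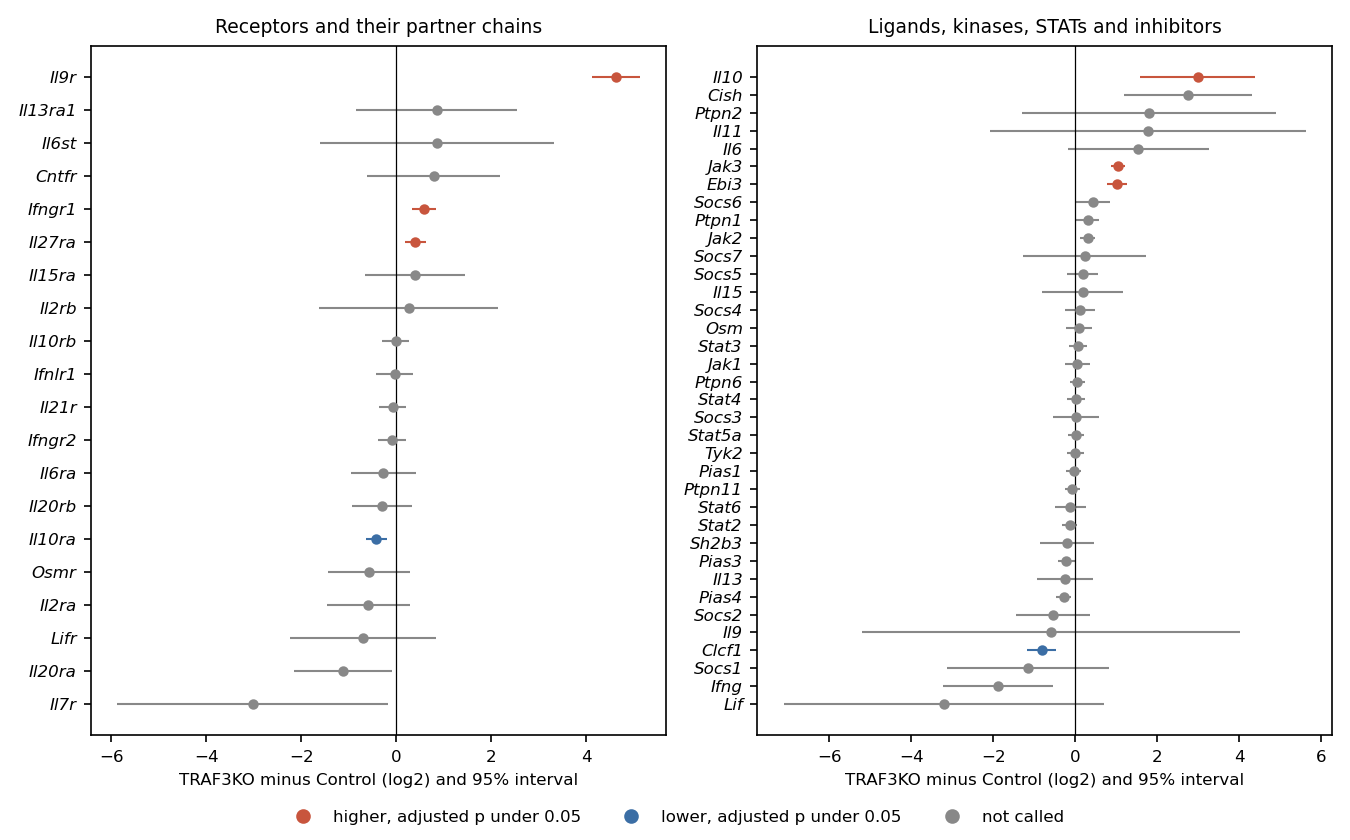
TRAF3KO minus Control difference (horizontal axis, log2) with its 95% interval for the receptors and their partner chains (left) and for ligands, kinases, STATs and inhibitors (right). Il9r, Ifngr1 and Il27ra are higher and Il10ra lower on the left, and Jak3, Ebi3 and Il10 are higher and Clcf1 lower on the right.

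Among cytokines that bind these receptors 11 of 18 were tested, with 2 higher, 1 lower and 8 not called (median 0.09). Il10, the ligand of the receptor that fell, read 3.25, 5.05 and 4.52 in Control and 7.96, 7.84 and 5.98 in TRAF3KO. It rose by 2.99 ± 0.63 (limma adjusted p = 0.026) from dim control values, and by 1.57 with an offset of 50 added to the intensities. Of 6 leave-one-out fits 4 lost this call, those without Control replicates 1 and 3 and TRAF3KO replicates 1 and 2. Blocking on inferred sex gave 2.97 and no call (adjusted p = 0.060). Ebi3, a subunit of IL-27, rose by 1.01 ± 0.11 (adjusted p = 6.0e-04). Clcf1, a ligand of the gp130 family, read 10.71, 10.23 and 10.37 in Control and 9.71, 9.31 and 9.83 in TRAF3KO, and fell by 0.82 log2 units (SE 0.16, adjusted p = 0.017). Its call was lost without Control replicate 1 (0.082), Control replicate 3 (0.053) and TRAF3KO replicate 2 (0.058). Ifng, encoding the ligand of the receptor that rose, read 6.66, 5.59 and 6.21 in Control and 5.10, 4.30 and 3.43 in TRAF3KO. Its groups did not overlap, as for 22.4% of all genes tested, and its difference of -1.88 ± 0.61 was not called (adjusted p = 0.14). Il6 differed by 1.54 ± 0.77 (adjusted p = 0.37), and Il4 and Il21 lay under the filter.

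Of 11 kinases and STATs 9 were tested, with 1 higher, 0 lower and 8 not called (median 0.02). Jak3, the kinase bound to the common gamma chain, read 11.10, 10.99 and 11.08 in Control and 12.10, 12.10 and 12.09 in TRAF3KO. It rose by 1.04 ± 0.07 (limma adjusted p = 3.0e-05) and was called in all 18 alternatives. Jak2, which serves the interferon gamma receptor, differed by 0.30 ± 0.08 (adjusted p = 0.067). Its groups did not overlap, as for 22.4% of all genes tested. Jak1 differed by 0.05 ± 0.14 and Tyk2 by 0.00 ± 0.10, and Stat3 and Stat6 by 0.07 ± 0.10 and -0.12 ± 0.17.

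Of 17 inhibitors 16 were tested and 0 were called by limma (median 0.03). At an unadjusted limma p under 0.05 there were 4 of the 16, beside 1741 of all 10304 genes tested. The largest difference was that of Cish, an inhibitor induced by STAT5, at 2.91, 4.42 and 3.05 in Control and 6.06, 5.61 and 6.95 in TRAF3KO. Its groups did not overlap, as for 22.4% of all genes tested, and the difference of 2.75 ± 0.71 was not called (adjusted p = 0.061). Socs1 differed by -1.16 ± 0.89 and Socs3 by 0.02 ± 0.25.

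Genes known to respond to these receptors were described from 3 lists. Over these and the ligand, kinase and STAT, and inhibitor lists together 8 of 58 genes were called (13.8%), beside 4.44% of all genes tested. The lists were chosen with earlier results of these data known. Of 13 interferon gamma targets 11 were tested, with 1 higher, 0 lower and a median of -0.02. Cd274, the checkpoint ligand PD-L1, rose by 0.69 ± 0.17 (limma adjusted p = 0.044), which 5 of 6 leave-one-out fits did not call (all except the one without Control replicate 3). Among the others Irf1 differed by -0.02 ± 0.09 and Gbp2 by 0.17 ± 0.11. Of 10 genes induced by IL-4 or IL-21, 7 were tested and 1 was higher (median 0.02). This was Xbp1, a transcription factor of secretory cells, at 0.48 ± 0.08 (adjusted p = 0.0094). The plasma cell marker Sdc1 fell by 2.22 log2 units (SE 0.21, adjusted p = 2.4e-04). Summed over 6 plasma cell markers, Xbp1 among them, intensity was 9980.2 to 10590.1 in Control and 11458.5 to 12584.3 in TRAF3KO, without overlap. Most of that sum was Xbp1 and Irf4, and Irf4 differed by 0.07 ± 0.08 (limma adjusted p = 0.70). The higher sum is thus not independent of the Xbp1 call. Of the 4 plasma cell markers tested, 2 had a positive and 2 a negative difference. Fcer2a, the IL-4 induced receptor CD23, differed by -0.01 ± 0.15.

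Of 10 genes induced through STAT3, 9 were tested, with 3 higher and 0 lower, where 4.44% of all genes were called. All 9 differences were positive, against 5224 of all 10304 genes tested, with a median of 0.48 beside 0.00 over all genes. The list was chosen with earlier results of these data known. It holds Stat3 itself and Il10, which is also counted among the ligands. Il10 was one of the 3 called higher, with the lost calls given above. Bcl3, an atypical IkB protein, read 10.23, 9.87 and 10.11 in Control and 10.79, 10.67 and 10.66 in TRAF3KO and rose by 0.64 ± 0.11 (limma adjusted p = 0.0087). Mcl1, which opposes cell death, rose by 0.48 ± 0.08 (adjusted p = 0.0070). Socs3, a commonly used readout of STAT3, is the member nearest to 0. Bcl3 and Mcl1 are also known targets of other pathways, among them NF-kB.

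**Figure D4:**
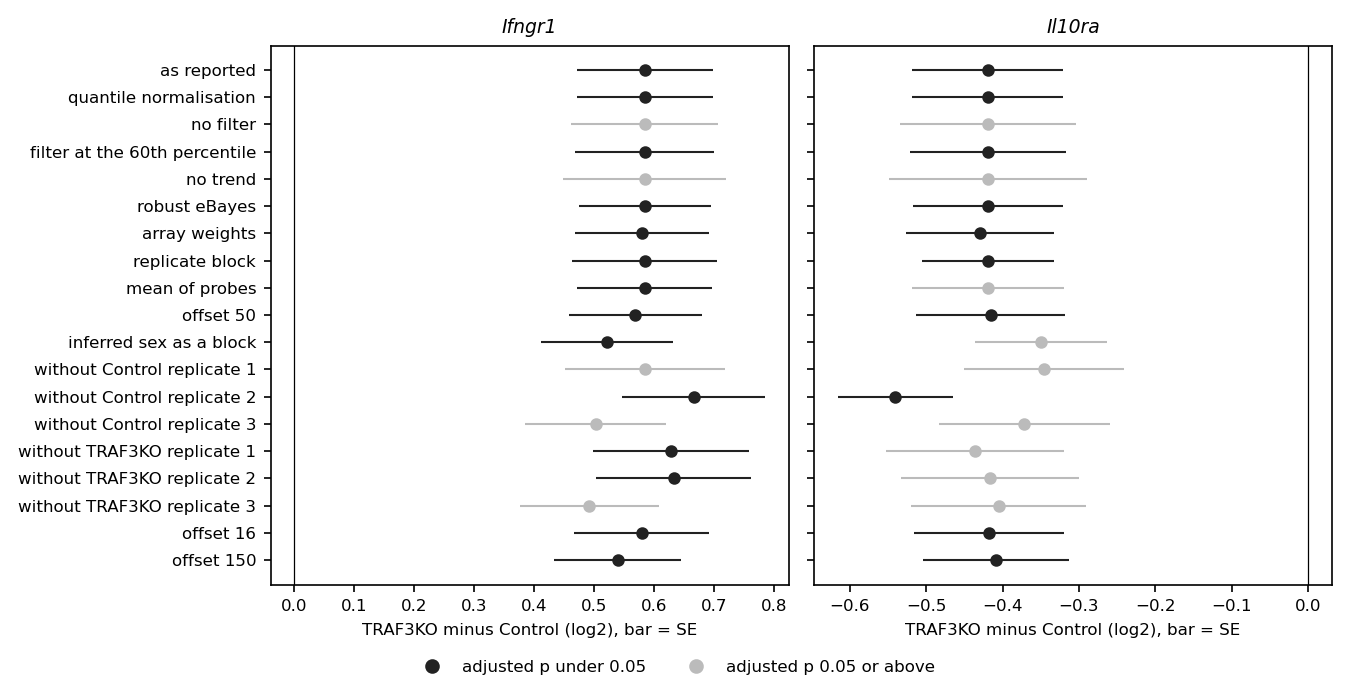
TRAF3KO minus Control difference (horizontal axis, log2, bar = SE) of Ifngr1 and Il10ra as reported and under each alternative. Dark points have an adjusted p under 0.05: the sign never changes, while 5 of 18 alternatives for Ifngr1 and 9 of 18 for Il10ra lose the call.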

How the data were processed

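The values the authors deposited are log2 intensities of 25697 probes on 6 single-colour Illumina arrays of biotin-labelled RNA, per the labels' protocols. The submitters' processing notes name BeadStudio 3.2.3 and give it no role. Background correction and normalisation are not stated there. Of each array, 31.3% to 31.4% of probes lay at 0, the lowest value. No detection p was used. Precision is limited by the number of arrays.

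The platform annotation gave the probes their gene symbols (23141 with 1 symbol, 0 with several, 2556 unnamed). A probe was kept (15657 in all) where it exceeded its array's 40th percentile on 3 arrays or more. The deposited values were fitted on group alone by lmFit and eBayes (variance trend) of limma 3.58.1, under R 4.3.3. The brightest kept probe stood for each gene. Differences are TRAF3KO minus Control.

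The genes named were the 8 receptors, the called genes of each list (or the gene of largest difference), genes fixed by name and the 3 genes most like the receptor of largest difference. Members, lists and alternatives were chosen with earlier results of these data known. Lists are described by counts and medians. The chain pairs were added after the values were seen and compared by exact permutation (scipy 1.17.1). The procedure was run on simulated data with independent normal noise and planted differences. Such data hold no sex or cell content differences, so they cannot show how calls behave where these are present. Alternatives were other normalisation, filters, variance models, weights, offsets, probes, blocks and leaving out each array. Same-numbered arrays of the groups had deviations correlated at 0.044, 0.043 and 0.030, and differently numbered ones at -0.054 to 0.013. The same-numbered values were the highest though small, so they do not settle whether the numbers pair arrays. The main fit left pairing out, and the replicate block was run as an alternative.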

Additional observations from a re-analysis of the deposited data

How the results depend on the processing

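The signs of the differences of Ifngr1, Il10ra, Il2ra, Il21r and Il6ra were the same under every alternative run, and that of Il6st turned to -0.032 without Control replicate 1 (-0.032 to 1.75 over the leave-one-out fits). The difference of Ifngr1 was 0.58 without the dim-probe filter (adjusted p = 0.19) and without a variance trend (0.19), and lost its call in both. Il10ra lost its call at -0.42 with no filter (0.29), no trend (0.28) and the mean of probes (0.055), and at -0.35 with inferred sex as a block. Leaving out 1 array gave 0.49 to 0.67 for Ifngr1 and -0.54 to -0.35 for Il10ra. The count of receptors called was 0 with no filter, 0 with no trend, 1 with the mean of probes, 1 with inferred sex as a block and 0 to 2 leaving out 1 array. In those limma fits with a count of 0, 2 receptors had an unadjusted p under 0.05, and 3 with no trend. Of all genes, 1813 of 16110 had such a p with no filter and 1401 of 10304 with no trend. Without Control replicates 1 and 3 and TRAF3KO replicate 3 there were 1393, 1565 and 1625 of 10304. Genes called fell from 457 to 114 with no filter and 65 with no trend, and to 227 to 382 leaving out 1 array. Partner chains and other receptors called numbered 1 with no filter, no trend or inferred sex as a block, and 1 to 2 leaving out 1 array. The 8 calls among signalling and target genes became 2 with no filter and 2 with no trend, and 5 to 8 leaving out 1 array. Offsets of 16 and 150 were added after the data were seen and kept 2 receptor calls each. With the replicate block 2 receptors were called, Ifngr1 at an adjusted p of 0.035 and Il10ra at 0.035, and no receptor's call changed. Il2ra, Il6st and Il10 had no probe past the filter at the 60th percentile. The causes of these changes were not tested. Dim probes, Il6st above all, limit what can be said of their genes.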
